A study of Mus musculus with 19 samples.

Results

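Loss of PU.1 in microglia of a degenerating hippocampus was examined in 6 RNA sequencing libraries, 3 from CK-p25 mice and 3 from CK-p25 mice with a conditional knockout of PU.1 (CK-p25 PU.1 cKO, here cKO). They were taken by their labels from the 9 libraries of the 4.5-month table, whose other 3 come from CK control mice, out of 15 RNA libraries and 19 samples in the series. Microglia were sorted from hippocampus by flow cytometry for CD11b and CD45. All 3 groups carried Cx3cr1CreER+/-, a tamoxifen-inducible Cre recombinase driven from the Cx3cr1 gene, and had tamoxifen at 50 mg/kg on 5 days in a row, begun at p25 induction at 3 months of age. Tissue was taken 6 weeks later, at 4.5 months. The CK-p25 group had the p25 transgenes without PU.1 fl/fl, the cKO group had the same transgenes with PU.1 fl/fl, and the CK group had Cx3cr1CreER+/- and CK without p25. Cx3cr1 is also active in border macrophages and in part of the monocytes, so the Cre is not limited to microglia. The labels do not say whether a library holds 1 animal or several, or whether libraries of a group come from different animals. The p-values then refer only to the spread among the libraries, which may be technical.

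PU.1, encoded by Spi1, is an ETS family transcription factor that binds purine-rich DNA with a GGAA core and opens enhancers in myeloid cells together with partners such as IRF8, RUNX1 and C/EBP factors. Microglia need it to develop and to keep genes such as the growth factor receptor gene Csf1r active. In CK-p25 mice, forebrain neurons are induced to express p25, a fragment of the Cdk5 activator p35, and then degenerate, and the microglia around them take up an inflammatory and disease-associated expression program.

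Levels are given in FPKM (fragments per kilobase of transcript, scaled by the library's total), without read counts. The value of 1 read, read from the commonest ratio between libraries among genes under 1 FPKM, was 0.920 to 1.01 of that in cKO replicate 1 for 4 of the other 5 libraries and 1.30 in CK-p25 replicate 3, where a read thus weighs more and low genes are less precise. That library alone among the 9 carries another run name in its label. It had 42.1% of genes listed at 0, against 31.6% to 36.0% in the other 5. Between 2 libraries, the root mean square difference over the genes tested, on the log2(FPKM + 1) scale, was 0.598 to 0.683 within cKO, 0.722 to 0.952 within CK-p25 and 0.612 to 0.930 between the groups, with medians of 0.622, 0.856 and 0.695. All pairs between the groups lay between the lowest cKO pair and the highest CK-p25 pair. Their range was not inside that of either group alone. The highest values were those of pairs with CK-p25 replicate 3, at 0.856 and 0.952 within CK-p25 and 0.892 to 0.930 against cKO. Among pairs without that library the highest was 0.742, between CK-p25 replicate 2 and cKO replicate 1. Defining microglia genes were abundant in all 6 libraries (Csf1r 2668 to 3369 FPKM). Xist reached at most 0.0146 FPKM and the Y-linked Eif2s3y and Ddx3y were above 10 FPKM in each of the 9 libraries.

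Spi1 was checked first. It measured 165, 152 and 224 FPKM in cKO against 251, 208 and 298 in CK-p25, with CK at 256, 229.7 and 251. Replicates 1 and 2 of cKO lay below all CK-p25 and CK libraries, while the library labelled cKO replicate 3 lay above CK-p25 replicate 2, so its Spi1 level alone does not tell it from a CK-p25 library. The means were 180.3 ± 38.5 FPKM in cKO and 252 ± 45.1 in CK-p25 (SD, n = 3 each), a log2 difference of -0.49 ± 0.17 (SE; 95% interval -0.88 to -0.09; limma adjusted p = 0.745). Without the library labelled cKO replicate 3 the difference was -0.65 (adjusted p = 0.232), and without CK-p25 replicate 3, which leaves 1 run name, it was -0.36. Over the 21 alternative settings it ran from -0.65 to -0.36 with adjusted p from 0.108 to 0.970. FPKM of a gene counts every part of the transcript, also those that a Cre deletion leaves in place. In sorted cells, fewer cells with the transcript and less transcript per cell cannot be told apart.

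The gene next to Spi1 on chromosome 2, by the RefSeq annotation of GRCm38.p6, divided the libraries more sharply. Mybpc3, which encodes the cardiac myosin binding protein C of heart muscle, measured 4.44, 4.23 and 0.0241 FPKM in cKO against 0.0491, 0 and 0.03399 in CK-p25, with CK at 0.0351, 0 and 0.0261. It was thus present in cKO replicates 1 and 2 and near 0 in the other 7 libraries, the library labelled cKO replicate 3 among them. Its mean over the 9 libraries was under 1 FPKM, so it was not in the main test, and it was singled out after its values were seen. The neighbour on the other side, the zinc transporter gene Slc39a13, measured 19.1, 16.6 and 16.9 FPKM in cKO against 19.5, 15.6 and 18.9 in CK-p25. Of the 100 tested protein-coding genes nearest to Spi1 in order, 50 on each side, 11 had groups that did not overlap, against 9.38% of the 10894 genes tested. Because the library labelled cKO replicate 3 stands apart from the other cKO libraries in Spi1 and Mybpc3, its value is pointed out where a result turns on it.

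Other ETS factors share the GGAA core. Of 19 genes of the family on the list, 15 were tested, the close relatives Spib and Spic being under 1 FPKM in all 9 libraries, and 5 of 15 had groups that did not overlap (9.38% of all genes tested). The repressor gene Etv3 measured 12.8, 13.8 and 12.3 FPKM in cKO against 10.4, 9.64 and 6.04 in CK-p25 (log2 difference 0.56 ± 0.18), with every cKO library above every CK-p25 library. Without CK-p25 replicate 3 the Etv3 difference was 0.34. Elk1, a target of MAP kinases, measured 1.71, 1.79 and 1.804 FPKM in cKO against 1.09, 1.45 and 1.003 in CK-p25 (0.35 ± 0.14). Elf1 (0.16 ± 0.07) and Etv1 (0.22 ± 0.09) also lay higher in all 3 cKO libraries, and Elf2 lay lower, at 9.01, 7.904 and 9.82 FPKM in cKO against 12.5, 11.3 and 10.4 in CK-p25 (-0.32 ± 0.12). None passed the threshold after adjustment. The list median was 0.21, against 0.00 over all genes tested, and the CK-p25 library of the other run had the lowest list median of the 6 libraries, -0.21 relative to the CK-p25 mean.

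**Figure D1:**
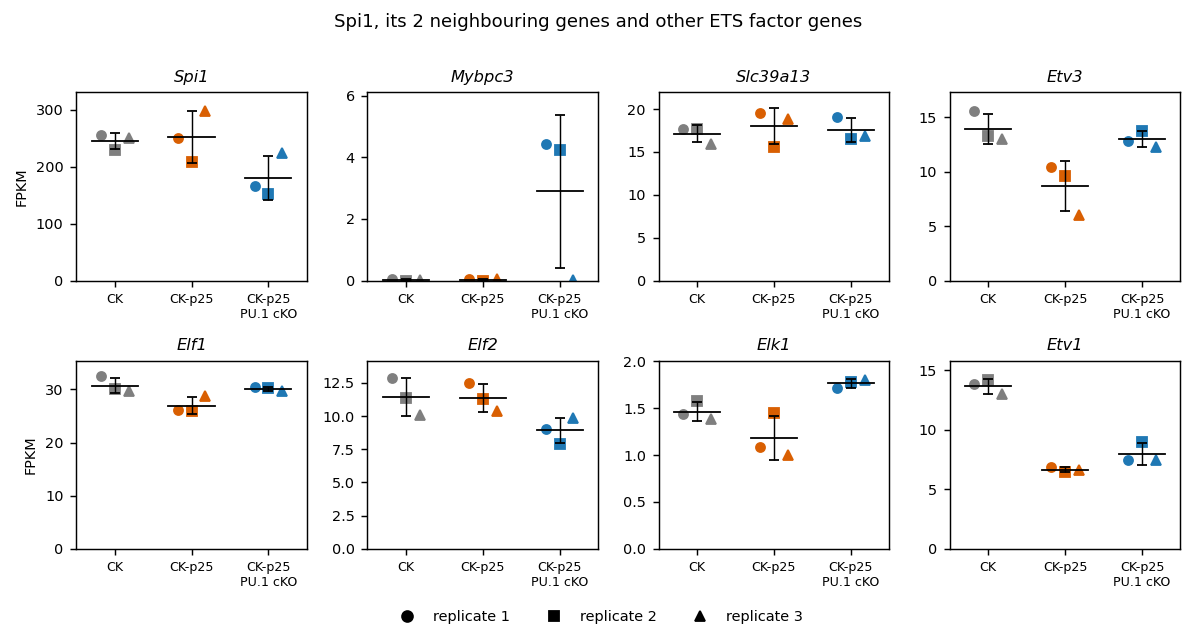
FPKM of Spi1, its neighbours Mybpc3 and Slc39a13, and ETS factor genes in the 9 libraries (vertical axes in FPKM from 0; markers are replicates, horizontal lines means, bars ± SD, n = 3, drawn down to 0 where they would go below). Spi1 is lowest in cKO replicates 1 and 2, and Mybpc3 is above 4 FPKM in these 2 libraries alone.

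Across all genes, CK-p25 PU.1 cKO was compared with CK-p25 to ask which genes depend on PU.1 in microglia of a brain with neurodegeneration. With limma on log2(FPKM + 1), 0 of 10894 genes passed an adjusted p of 0.05 (0.00%). The unadjusted p was under 0.05 for 671 genes (6.16%), 294 of them higher (2.70%) and 377 lower (3.46%) in cKO. Groups did not overlap in 1022 genes (9.38%), 525 higher (4.82%) and 497 lower (4.56%). The precision was uneven: for 9363 genes, or 85.9%, the 95% interval of the difference lay within 1 log2 unit on either side of 0, so for these a difference of over 2-fold in FPKM + 1 was outside the interval, and for the remaining genes it was not.

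**Figure D2:**
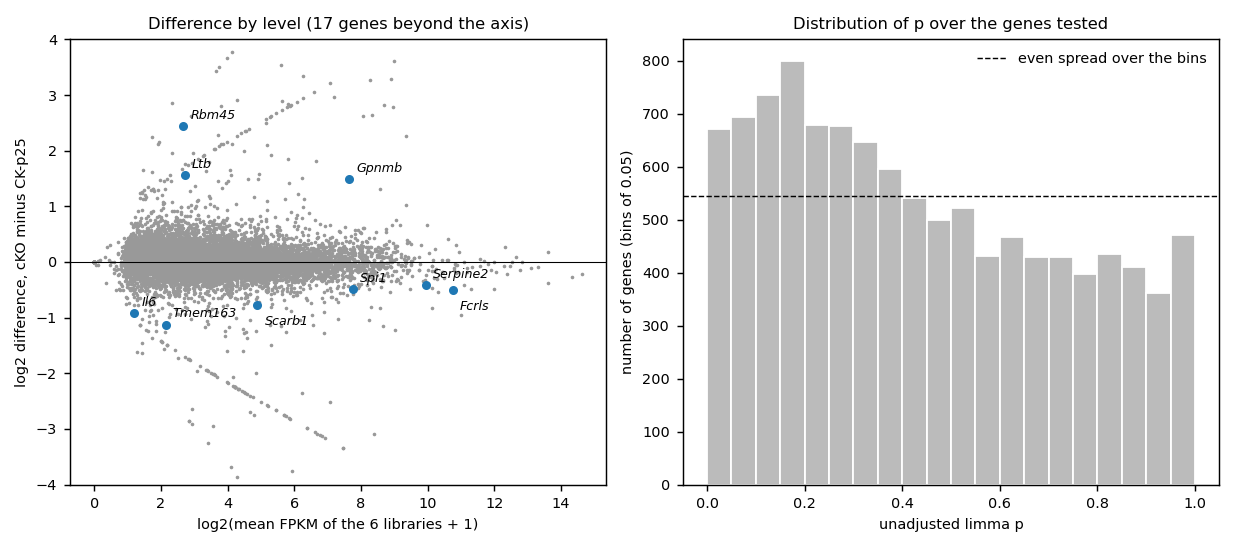
Left, log2 difference cKO minus CK-p25 of each gene tested by its level (log2 of mean FPKM + 1; 17 genes lie beyond the axis limit of 4), with some of the genes named in the text in blue; right, histogram of the unadjusted limma p in bins of 0.05, with the height of an even spread, 544.7 genes, as a dashed line. Most genes lie near 0, and the lowest p bin, with 671 genes, is lower than the next 4 bins.

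The genes with the smallest p among those whose groups did not overlap are given as a description, since none passed. The red cell genes Hba-a2 and Hbb-bt, at an unadjusted limma p of 0.000343 and 0.00107, are among those higher in cKO. Their values are given below. They passed the filter only through the cKO libraries, where they are high, so they had to differ. Rbm45, an RNA-binding protein gene on the same chromosome as Spi1 and among the 100 genes nearest to it, had the smallest p. It measured 11.3, 12 and 6.06 FPKM in cKO against 1.06, 1.105 and 0.634 in CK-p25, while CK libraries held 0.899, 1.41 and 1.06. All 3 cKO libraries were above the other 6, and the library labelled cKO replicate 3 was the lowest of the 3. The log2 difference was 2.44 ± 0.24 (adjusted p = 0.0765, and 0.00542 to 0.294 over the alternatives that hold the gene, the lowest without the library labelled cKO replicate 3). Ltb, which encodes lymphotoxin beta, measured 5.74, 11.99 and 8.799 FPKM in cKO against 1.96, 3.15 and 1.73 in CK-p25 (log2 difference 1.56 ± 0.30), and CK libraries lay at 11.7, 5.74 and 8.77, near cKO. Ly6a, a surface antigen gene induced by interferon, measured 103, 105 and 123 FPKM in cKO against 58.3, 76.2 and 47.03 in CK-p25 (0.88 ± 0.20). Clec2i, a C-type lectin gene, measured 7.02, 6.9 and 5.78 FPKM in cKO against 3.22, 4.53 and 3.59 in CK-p25 (0.67 ± 0.15), and Arhgap15, a Rac regulator gene, 11.9, 12.6 and 6.81 FPKM in cKO against 4.22, 5.73 and 3.01 in CK-p25 (1.10 ± 0.25). In both the groups were clear of each other, and CK lay lower still, at 0.805, 1.22 and 0.8802 FPKM of Clec2i. The enzyme genes Fpgt (0.47 ± 0.10) and Aldh4a1 (0.41 ± 0.09) differed by less.

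The sphingosine-1-phosphate receptor genes lay apart in opposite directions. S1pr2 was higher in cKO, at 6.98, 9.61 and 6.02 FPKM in cKO against 4.25, 4.44 and 3.801 in CK-p25 (0.71 ± 0.15). S1pr1 was lower, at 43.1, 46.9 and 49.4 FPKM in cKO against 75.96, 62.3 and 69.2 in CK-p25 (-0.56 ± 0.11). CK libraries held 7.65, 8.28 and 8.47 FPKM of S1pr2 and 53.1, 50.01 and 44.3 of S1pr1, so in both genes cKO lay close to CK. S1pr1 and S1pr2 couple to different G proteins and have opposing effects on cell migration in many cell types. Whether the 2 differences differ from each other was not tested.

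Among the genes lower in cKO, Scarb1, the scavenger receptor for high-density lipoprotein, measured 18.2, 18.6 and 25.97 FPKM in cKO against 34.2, 35.3 and 39.5 in CK-p25, with a log2 difference of -0.78 ± 0.14, and CK libraries held 22.3, 19.6 and 19.04. Serpine2, a secreted serine protease inhibitor, measured 874, 809 and 855 FPKM in cKO against 1119, 1142 and 1119 in CK-p25 (-0.41 ± 0.08), with CK far below at 463, 429.8 and 417. Its CK-p25 libraries agreed closely, and each cKO library lay below them. Tmem163, a zinc transporter gene, measured 1.88, 1.47 and 1.89 FPKM in cKO against 6.81, 4.18 and 4.29 in CK-p25 (-1.13 ± 0.19) and under 0.12 FPKM in CK. It reached a mean of 1 FPKM only through the CK-p25 libraries, where it is high, so its difference adds no support. Actr3b, an actin-related protein gene, measured 19.7, 17.9 and 17.03 FPKM in cKO against 25.5, 29.8 and 28.6 in CK-p25 (-0.59 ± 0.12), again with CK lower, at 0.337, 0.594 and 0.785. Mlph, a melanosome transport gene, measured 9.32, 6.99 and 11.4 FPKM in cKO against 17.8, 19.7 and 28.6 in CK-p25 (-1.17 ± 0.20), and here CK, at 18.9, 21.7 and 20.5, lay with CK-p25. Tmem144 (-0.41 ± 0.08), the lipid transfer gene Pitpnc1 (-0.46 ± 0.10) and the TGF-beta family gene Lefty1 (-0.72 ± 0.16) were lower too. Apart from Hba-a2 and Hbb-bt, the genes named in these 3 paragraphs kept their sign in each of the 21 alternatives that holds them, and their largest unadjusted limma p was 0.00241. Both follow from the choice of genes by small p and no overlap, so they add no support. With no overlap, leaving out 1 library cannot reverse a sign.

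**Figure D3:**
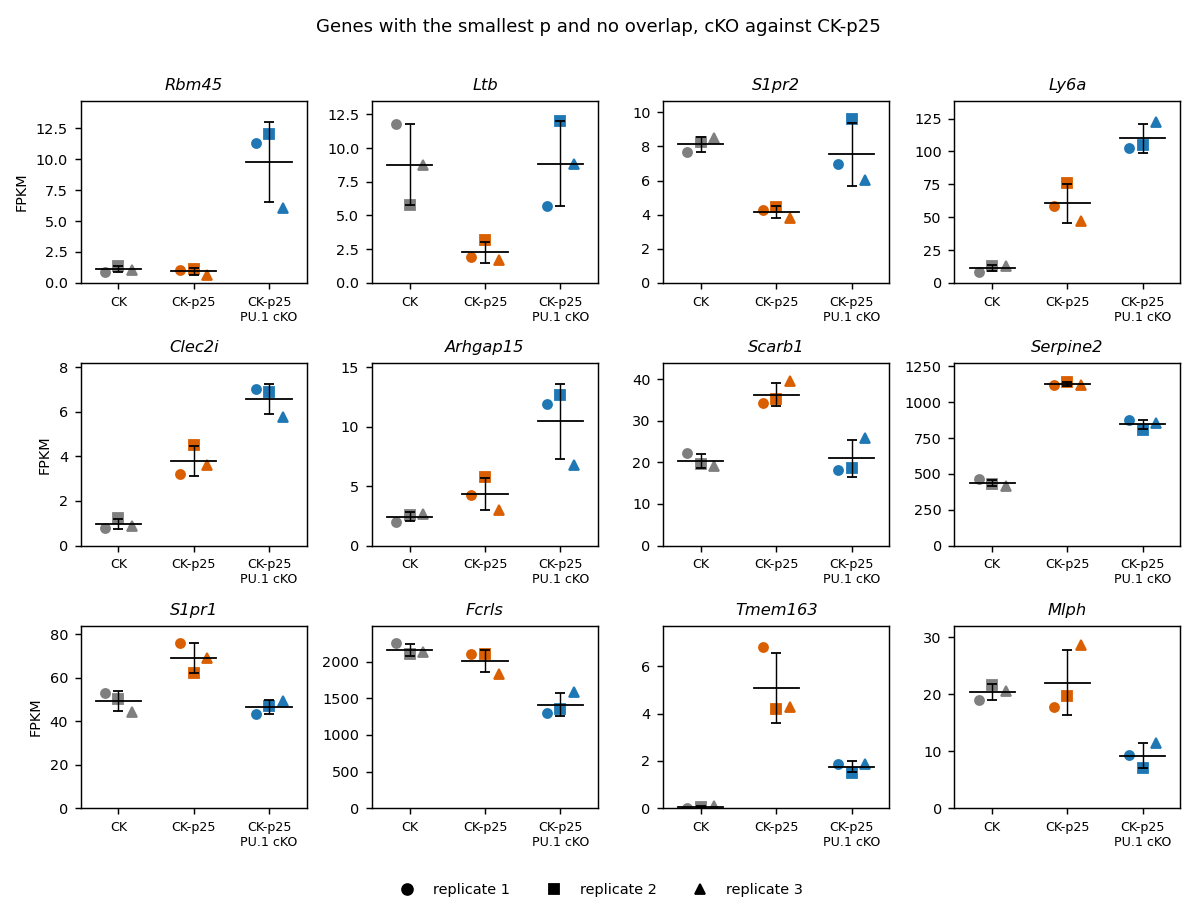
FPKM in the 9 libraries of 12 of the genes with the smallest p and no overlap between cKO and CK-p25 (vertical axes in FPKM from 0; markers are replicates, lines means, bars ± SD, n = 3). The first 6 panels are higher and the last 6 lower in cKO, and Rbm45 in all 3 cKO libraries is above 6 FPKM.

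Leaving out 1 library at a time changed the count of genes past the threshold most for the library labelled cKO replicate 3. Without it, at a limma adjusted p of 0.05 over 10832 genes, 12 genes (0.111%) were higher and 13 (0.120%) lower in the 2 other cKO libraries than in the 3 CK-p25 libraries, against 0 and 0 with it, and at most 3 higher and 4 lower without any 1 of the other 8 libraries. The 13 lower ones hold 2 small RNA genes or unnamed gene models. In 6 of the 12 higher and 3 of the 13 lower genes, the library labelled cKO replicate 3 fell inside the range of the CK-p25 libraries. These genes were selected by a fit without that library, so its values in them are a description. The same share over all genes tested was not taken, so the counts do not tell whether that library is close to CK-p25.

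Of the 12 higher genes, Kcnn4, the calcium-activated potassium channel KCa3.1 of microglia, measured 54.9, 51.6 and 4.497 FPKM in cKO against 5.596, 3.51 and 7.63 in CK-p25 (without the library, log2 difference 3.09 ± 0.25, adjusted p = 0.00705). Xdh, the xanthine dehydrogenase gene, measured 33.6, 30.9 and 4.67 FPKM in cKO against 4.61, 7.44 and 5.95 in CK-p25 (2.27 ± 0.21). Complement C3 measured 139, 119.8 and 38.2 FPKM in cKO against 41.6, 36.5 and 31.3 in CK-p25 (1.81 ± 0.15). In each of these the first 2 cKO libraries were alike and the library labelled replicate 3 was at the CK-p25 level. Gpnmb, a glycoprotein gene of disease-associated microglia, measured 369.7, 431 and 111 FPKM in cKO against 87.3, 127 and 71.8 in CK-p25 (2.10 ± 0.24; with all libraries 1.48 ± 0.47). Alox5, the 5-lipoxygenase gene of leukotriene synthesis, measured 28.9, 30.5 and 10.6 FPKM in cKO against 13.9, 12.6 and 11.6 in CK-p25 (1.17 ± 0.12), and its CK level, 30.6, 25.2 and 27.5, was that of cKO replicates 1 and 2. The phosphatase gene Ptpn7 (1.72 ± 0.20), the cytoskeletal adaptor gene Pstpip1 (1.31 ± 0.15), Scml4 (1.78 ± 0.21), Egfem1 (2.20 ± 0.22), Rbm45 (2.72 ± 0.18), Mybpc3 (2.38 ± 0.20) and the hemoglobin gene Hbb-b1 (3.08 ± 0.40) complete the 12. Ptpn7, Scml4, Egfem1, Mybpc3 and Hbb-b1 reached a mean of 1 FPKM only through the cKO libraries where they are high, so they had to differ and their counts add no support, and Mybpc3 entered the test only here.

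Of the 13 lower genes, Siglece, a sialic acid receptor with an inhibitory cytoplasmic motif, measured 4.55, 5.46 and 16.7 FPKM in cKO against 15.2, 13.9 and 15.8 in CK-p25 (without the library -1.41 ± 0.10, adjusted p = 0.00542). Cd22, another inhibitory sialic acid receptor, known from B cells and found in microglia, measured 15.4, 13.2 and 50.03 FPKM in cKO against 49.5, 41.6 and 58.2 in CK-p25 (-1.72 ± 0.17). Cd79b, a B cell receptor subunit gene, measured 3.12, 3.89 and 21.8 FPKM in cKO against 20.6, 15.4 and 19.3 in CK-p25 (-2.10 ± 0.15). In each the library labelled cKO replicate 3 was near or above the CK-p25 libraries. Ecscr measured 6.21, 5.92 and 20.8 FPKM in cKO against 27.8, 25.7 and 38.5 in CK-p25 (-2.14 ± 0.16). Here that library lay between, and CK was far higher, at 196, 184 and 192. Cadm1, an adhesion molecule gene, measured 34.1, 34.2 and 76.2 FPKM in cKO against 97.7, 82.4 and 98.7 in CK-p25 (-1.41 ± 0.14), and Gatm, the first enzyme of creatine synthesis, 35.1, 39.3 and 137 FPKM in cKO against 97.9, 97.1 and 147 in CK-p25 (-1.56 ± 0.18). Liph (-1.40 ± 0.17), Rapgef5 (-0.94 ± 0.12), Npnt (-1.01 ± 0.10), Tmc7 (-1.02 ± 0.11) and Scarb1 (-0.94 ± 0.10) are the remaining named genes. Cd22 and Cadm1 were at 3.57, 3.43 and 2.65 and 43.2, 36.7 and 32.6 FPKM in CK, below CK-p25, while Siglece and Cd79b were highest in CK, at 70.5, 75.3 and 74.8 and 31.9, 26.2 and 28.6.

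**Figure D4:**
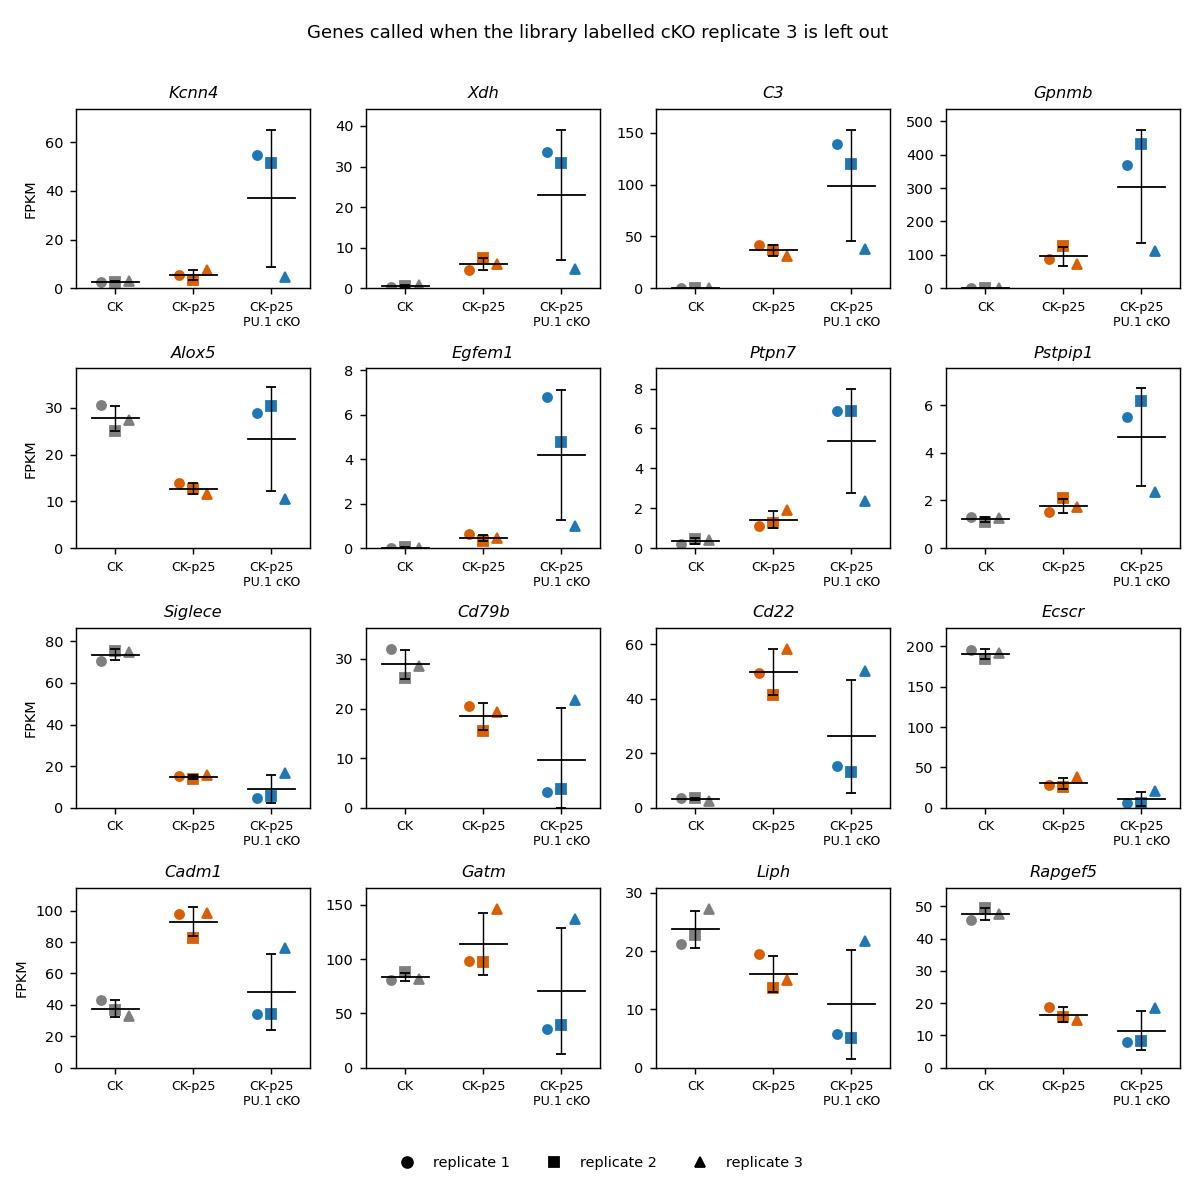
FPKM in the 9 libraries of 16 of the genes past the threshold when the library labelled cKO replicate 3 is left out (vertical axes in FPKM from 0; markers are replicates, lines means, bars ± SD, n = 3, drawn down to 0 where they would go below). Circles and squares of cKO lie together, and the triangle of cKO lies at or toward the CK-p25 libraries, in genes selected by a fit without it.

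Known PU.1 target genes were mostly close between the groups. All 22 on the list were tested, 2 of 22 had groups that did not overlap (9.38% of all genes tested), both lower, and the list median was -0.10 (0.00 over all genes tested). The difference interval lay within 1 log2 unit for 19 of 22. Csf1r, the receptor that keeps microglia alive, measured 2848, 2668 and 3346 FPKM in cKO against 3369, 2943 and 2984 in CK-p25. Itgam, the CD11b gene used in the sort, measured 408, 379.9 and 359 FPKM in cKO against 415, 443 and 293 in CK-p25. Cybb, the catalytic subunit of the phagocyte oxidase, measured 116, 124 and 116 FPKM in cKO against 82.2, 88.5 and 133 in CK-p25. In these 3 genes the groups overlapped. Cd33, a sialic acid receptor and Alzheimer risk gene, measured 94.4, 95.9 and 117 FPKM in cKO against 126, 121 and 121 in CK-p25 (-0.26 ± 0.09), with every cKO library below CK-p25. Il1b measured 10.3, 9.96 and 28.2 FPKM in cKO against 22.2, 28.1 and 68.7 in CK-p25 (-1.23 ± 0.53), with overlap. Without the library labelled cKO replicate 3 the Il1b difference was -1.69 and the list median was -0.16. Without CK-p25 replicate 3 the Il1b difference was -0.76.

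The letters GAGGAA, the core of the PU-box, were searched on both strands of RefSeq promoter windows of GRCm38.p6 (250 bases before to 50 after the start). They occurred in 12 of the 16 target genes with a window, 75%, in 30.7% of the 8121 genes tested that have one, and in 28.3% of all 32851 windows. The median difference between cKO and CK-p25 was -0.10 for the 12 target genes with the letters and -0.31 for the 4 without, and 0.00 for tested genes with and without them. The 160 bases before the start are shown for 4 genes that hold the letters and lie differently: Fcrls, lower in cKO; Ltb, higher; and Itgam and Csf2ra, whose groups overlap. Capitals mark GAGGAA or its reverse complement TTCCTC. The stretches are chr3:87263525-87263684 on the minus strand, chr17:35194347-35194506 on the plus strand, chr7:128062480-128062639 on the plus strand and chr19:61228419-61228578 on the minus strand, each printed 5′ to 3′ along its gene.
Fcrls: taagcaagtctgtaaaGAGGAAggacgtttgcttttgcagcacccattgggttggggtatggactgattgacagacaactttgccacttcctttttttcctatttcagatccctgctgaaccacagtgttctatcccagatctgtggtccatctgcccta
Ltb: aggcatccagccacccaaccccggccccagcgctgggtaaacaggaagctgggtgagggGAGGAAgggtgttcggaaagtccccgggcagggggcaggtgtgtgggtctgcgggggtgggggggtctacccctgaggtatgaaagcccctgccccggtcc
Itgam: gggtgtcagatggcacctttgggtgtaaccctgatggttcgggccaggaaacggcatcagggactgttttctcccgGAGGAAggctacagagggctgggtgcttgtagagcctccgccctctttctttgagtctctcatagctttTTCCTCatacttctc
Csf2ra: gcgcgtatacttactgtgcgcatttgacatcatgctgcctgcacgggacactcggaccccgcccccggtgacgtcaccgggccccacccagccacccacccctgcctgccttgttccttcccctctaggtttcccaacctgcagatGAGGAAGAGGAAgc
The letters are present in genes on both sides of 0 and near it. A match says only that the letters are there.

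Partner and identity factors of microglia differed little. All 22 myeloid transcription factor genes were tested, 1 of 22 had groups that did not overlap (9.38% of all genes tested), the list median was -0.04, and the interval lay within 1 log2 unit for 20 of 22. That gene is Mef2c, a factor that restrains microglial activation, at 77.97, 86.8 and 76.4 FPKM in cKO against 71.9, 69.1 and 61.2 in CK-p25 (0.25 ± 0.09). The PU.1 partner gene Irf8 measured 308, 277 and 270.3 FPKM in cKO against 284, 244 and 425 in CK-p25. Runx1 measured 19.98, 19.3 and 18.9 FPKM in cKO against 21.3, 21.95 and 11.4 in CK-p25. The microglial identity gene Sall1 measured 44.3, 41.1 and 48.8 FPKM in cKO against 53.8, 42.7 and 45.1 in CK-p25, with CK at 113, 101 and 98.2. In all 3 genes the libraries of the groups overlapped.

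Homeostatic microglia genes had a lower mean in cKO for 14 of the 20, all of which were tested (5376 of all 10894 genes tested). Groups did not overlap in 4 of 20, all 4 lower (4.56% of all genes tested), and the list median was -0.09. The interval lay within 1 log2 unit for 20 of 20. Fcrls, an Fc receptor-like gene of microglia, measured 1297, 1359 and 1592 FPKM in cKO against 2101, 2106 and 1839 in CK-p25 (log2 difference -0.51 ± 0.10), with CK at 2258, 2107 and 2132. All 3 cKO libraries lay below the other 6. Siglech, a sialic acid receptor gene of microglia, measured 363, 351 and 409 FPKM in cKO against 511, 446 and 699 in CK-p25 (-0.54 ± 0.16), and the Golgi protein gene Golm1 225, 192 and 234 FPKM in cKO against 253, 258 and 353 in CK-p25 (-0.39 ± 0.14). Without CK-p25 replicate 3 the difference was -0.35 for Siglech and -0.24 for Golm1. Sparc, a matrix protein gene, measured 1165, 1008 and 960.0 FPKM in cKO against 1331, 1179.7 and 1302 in CK-p25 (-0.29 ± 0.11). The better known members did not divide the groups. The purinergic receptor gene P2ry12 measured 848, 783 and 791 FPKM in cKO against 983, 717 and 999 in CK-p25 (-0.14 ± 0.14), and Tmem119 1296, 1072 and 974 FPKM in cKO against 1118, 823 and 1035 in CK-p25 (0.17 ± 0.14). Cx3cr1, the gene that drives the Cre, measured 666, 576 and 1187 FPKM in cKO against 737, 530.0 and 600.0 in CK-p25 (0.32 ± 0.25), its high value being that of the library labelled cKO replicate 3. Without that library the Cx3cr1 difference was 0.01 and the list median was -0.12, and without CK-p25 replicate 3 it was -0.09.

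Disease-associated genes had a higher mean in cKO for 9 and a lower one for 15 (5443 and 5376 of all 10894 genes tested). All 24 were tested, 3 of 24 had groups that did not overlap (9.38% of all genes tested), and the list median was -0.06. Without the library labelled cKO replicate 3 the median was 0.04. Against CK the list median was 3.95 in CK-p25 and 4.05 in cKO, comparisons that share the CK libraries. Spp1 (osteopontin) measured 2222, 1843 and 1164 FPKM in cKO against 1587, 2060.1 and 2229 in CK-p25 (-0.20 ± 0.37) and Cst7 (cystatin F) 1753, 1407 and 836 FPKM in cKO against 1560.2, 1749 and 1372 in CK-p25 (-0.29 ± 0.24). In both, the library labelled cKO replicate 3 was the lowest of the 6, and without it the differences were 0.06 and 0.02. Lgals3 (galectin-3) measured 121, 133 and 107 FPKM in cKO against 90.4, 79.02 and 79.5 in CK-p25 (0.53 ± 0.14), with every cKO library above CK-p25, and the chemokine gene Ccl6 856, 765 and 723 FPKM in cKO against 699, 637 and 496 in CK-p25 (0.37 ± 0.14), likewise. The protease gene Ctsb lay lower, at 3774, 3472 and 3696 FPKM in cKO against 4038, 4012 and 3963 in CK-p25 (-0.14 ± 0.08). Ctsd, the cathepsin D gene, had 30706 FPKM in CK-p25 replicate 3 and is listed at 0 in the 5 other libraries of the 2 groups. CK held 14566, 13006 and 12960 FPKM. No difference is given for Ctsd, but it remains in the count of 15 lower genes and in the list median. The cause of the values listed at 0 was not tested.

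For interferon response genes the groups overlapped throughout. All 23 were tested, 0 had groups that did not overlap (9.38% of all genes tested), and the list median was -0.11. The unadjusted limma p was under 0.05 for 0 of them (6.16% of all genes tested). Irf7 measured 116, 83.8 and 121 FPKM in cKO against 82.6, 93.7 and 156 in CK-p25, and Ifit1 23.8, 18.7 and 28.6 FPKM in cKO against 14.3, 19.1 and 64.1 in CK-p25. CK-p25 replicate 3 was the highest of the 6 libraries in both genes, and its list median was 0.55 above the CK-p25 mean, against -0.25 in replicate 1. Without that library the list median difference was 0.16.

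Of 17 antigen presentation genes 16 were tested, 0 had groups that did not overlap (9.38% of all genes tested), and the list median was -0.34. The interval lay within 1 log2 unit for only 9 of 16. The class II gene H2-Ab1 measured 145, 272 and 619 FPKM in cKO against 831, 490.1 and 776 in CK-p25 (-1.23 ± 0.98), and Cd74, the class II invariant chain gene, 690.5, 1118 and 2832 FPKM in cKO against 2501, 2074 and 3119 in CK-p25. H2-Aa measured 102, 198 and 569 FPKM in cKO against 666, 402 and 482 in CK-p25. In these 3 genes cKO replicates 1 and 2 were below all CK-p25 libraries and the library labelled replicate 3 was within their range. H2-DMb1, which loads peptide on class II, measured 57.9, 58.2 and 81.2 FPKM in cKO against 121, 78 and 139 in CK-p25 (-0.74 ± 0.24) and the costimulatory gene Cd86 197, 164 and 244 FPKM in cKO against 248, 233 and 358 in CK-p25 (-0.46 ± 0.19). Without CK-p25 replicate 3 the Cd86 difference was -0.27. Class II genes are also high in border macrophages and other myeloid cells, whose markers differ between these libraries as given below, and their part in this was not tested. Class I and peptide supply genes varied, and those given were chosen after their values were seen. B2m measured 14367, 11447 and 13181 FPKM in cKO against 13900.0, 13903 and 7807 in CK-p25. Tap2 measured 91.3, 77.6 and 87.3 FPKM in cKO against 97.5, 74.2 and 98.3 in CK-p25. H2-D1 had a lower mean, at 3482, 2912 and 3541 FPKM in cKO against 5239, 3065 and 6049 in CK-p25 (-0.48 ± 0.25), with overlap. Among the others the difference was 0.18 for H2-K1, 0.21 for Nlrc5, -0.22 for Tap1, -0.05 for Psmb8 and -0.02 for Psmb9. Without the library labelled cKO replicate 3 the H2-Ab1 difference was -1.78 and the list median was -0.43. Over the 21 alternatives the H2-Ab1 difference ran from -1.78 to -0.73.

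Among 23 cytokine, chemokine and NF-kB genes 21 were tested, 3 of 21 had groups that did not overlap (9.38% of all genes tested), and the list median was -0.07. Apart from Ltb these were interleukin genes. Il6 measured 0.526, 0.284 and 0.969 FPKM in cKO against 1.76, 1.47 and 2.81 in CK-p25 (-0.92 ± 0.21), with CK at 7.83, 7.04 and 8.73. Il1a measured 28.02, 20.01 and 37.9 FPKM in cKO against 50.2, 44.04 and 138 in CK-p25 (-1.25 ± 0.41). Both lay lower in all 3 cKO libraries, and CK-p25 replicate 3 was the highest of the 6. Tnf measured 10.8, 8.69 and 8.13 FPKM in cKO against 6.89, 8.43 and 17.7 in CK-p25, with overlap. Without CK-p25 replicate 3 the difference was -0.73 for Il6 and -0.74 for Il1a.

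Of 13 complement genes 12 were tested and 1 of 12 had groups that did not overlap (9.38% of all genes tested). The list median was -0.06. The initiator gene C1qa measured 6387, 5037 and 6217 FPKM in cKO against 6904, 6371 and 4612 in CK-p25. The receptor gene C3ar1 measured 219.5, 203 and 211 FPKM in cKO against 224, 222 and 206 in CK-p25. Neither divided the groups, whereas C3, with all libraries at 1.23 ± 0.42, was higher in cKO replicates 1 and 2. So was the anaphylatoxin receptor gene C5ar1, at 169, 142 and 89.4 FPKM in cKO against 95.1, 90.3 and 58.7 in CK-p25 (0.69 ± 0.27). Over the 21 alternatives the C5ar1 difference ran from 0.47 to 0.95, highest without the library labelled cKO replicate 3. All 18 phagocytosis and Fc receptor genes were tested, 2 of 18 had groups that did not overlap (9.38% of all genes tested), and the median was -0.06. These are Vav1, a signalling adaptor gene of phagocytes, at 114, 99.5 and 109 FPKM in cKO against 121, 114 and 155 in CK-p25 (-0.26 ± 0.12), and the lysosomal membrane gene Lamp1, at 1745, 1578 and 1729 FPKM in cKO against 1823, 1819 and 1824 in CK-p25 (-0.11 ± 0.07). Without CK-p25 replicate 3 the Vav1 difference was -0.13. The lipid sensor gene Trem2 measured 2098, 1765 and 1577 FPKM in cKO against 2217, 1819.6 and 2082 in CK-p25, and the Fc receptor genes overlapped between groups, Fcgr1 at 135, 107 and 139 FPKM in cKO against 142, 110.3 and 152 in CK-p25 and Fcgr3 at 1167, 1025 and 1257 FPKM in cKO against 1289, 997 and 1513 in CK-p25.

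Lipid, risk and energy genes gave few separations. Of 20 lipid uptake, efflux and cholesterol genes 19 were tested and 1 of 19 had groups that did not overlap, against 9.38% of all genes tested, Scarb1 (list median -0.06). The efflux transporter gene Abca1 measured 85.8, 93.7 and 102 FPKM in cKO against 96.1, 115 and 20.8 in CK-p25, its lowest value in CK-p25 replicate 3. Lipoprotein lipase, Lpl, measured 91.96, 136 and 109 FPKM in cKO against 164, 117 and 286 in CK-p25 (-0.66 ± 0.29), and Apoe 17906, 20361 and 14563 FPKM in cKO against 13286, 17728 and 39444 in CK-p25, both highest in CK-p25 replicate 3. Without CK-p25 replicate 3 the Lpl difference was -0.31. Of 23 Alzheimer risk orthologs 21 were tested and 3 of 21 had groups that did not overlap, against the same 9.38%, Mef2c, Cd33 and Ctsb (median -0.06). All 15 glycolysis genes were tested and 1 of 15 had groups that did not overlap, also against 9.38%, the hexokinase gene Hk1 at 12.1, 13.4 and 11.8 FPKM in cKO against 8.46, 9.95 and 7.52 in CK-p25 (0.49 ± 0.12; list median 0.08).

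Of 21 cell cycle genes 20 were tested and 3 of 20 had groups that did not overlap, all lower (4.56% of all genes tested), with a list median of -0.07. Cdkn1a, the p21 inhibitor gene, measured 25.1, 21.5 and 23.3 FPKM in cKO against 27.98, 27.7 and 33.2 in CK-p25 (-0.33 ± 0.11). The mitotic genes Top2a, at 0.917, 0.921 and 0.777 FPKM in cKO against 1.15, 0.943 and 1.43 in CK-p25 (-0.21 ± 0.18), and Ube2c, at 1.71, 1.66 and 1.44 FPKM in cKO against 2.67, 1.72 and 2.95 in CK-p25 (-0.39 ± 0.23), were low in all 6 libraries, so few reads stand behind them. Of 17 survival and apoptosis genes 16 were tested, and 0 had groups that did not overlap (9.38% of all genes tested). The unadjusted limma p was under 0.05 for 1 (6.16% of all genes tested), the death receptor gene Fas. Fas measured 6.32, 4.5 and 4.08 FPKM in cKO against 2.99, 3.101 and 4.29 in CK-p25 (0.41 ± 0.17), and the list median was 0.17. Mcl1, a survival gene of myeloid cells, measured 113, 127 and 122 FPKM in cKO against 115, 109 and 106 in CK-p25. Of 18 growth factor receptor and signalling genes 15 were tested, and 0 had groups that did not overlap, against the same 9.38%. The unadjusted limma p was under 0.05 for 1, against the same 6.16%, the interleukin 7 receptor gene Il7r. Il7r measured 0.241, 0.935 and 1.53 FPKM in cKO against 2.47, 1.31 and 2.19 in CK-p25 (-0.69 ± 0.30), and the list median was 0.00.

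**Figure D5:**
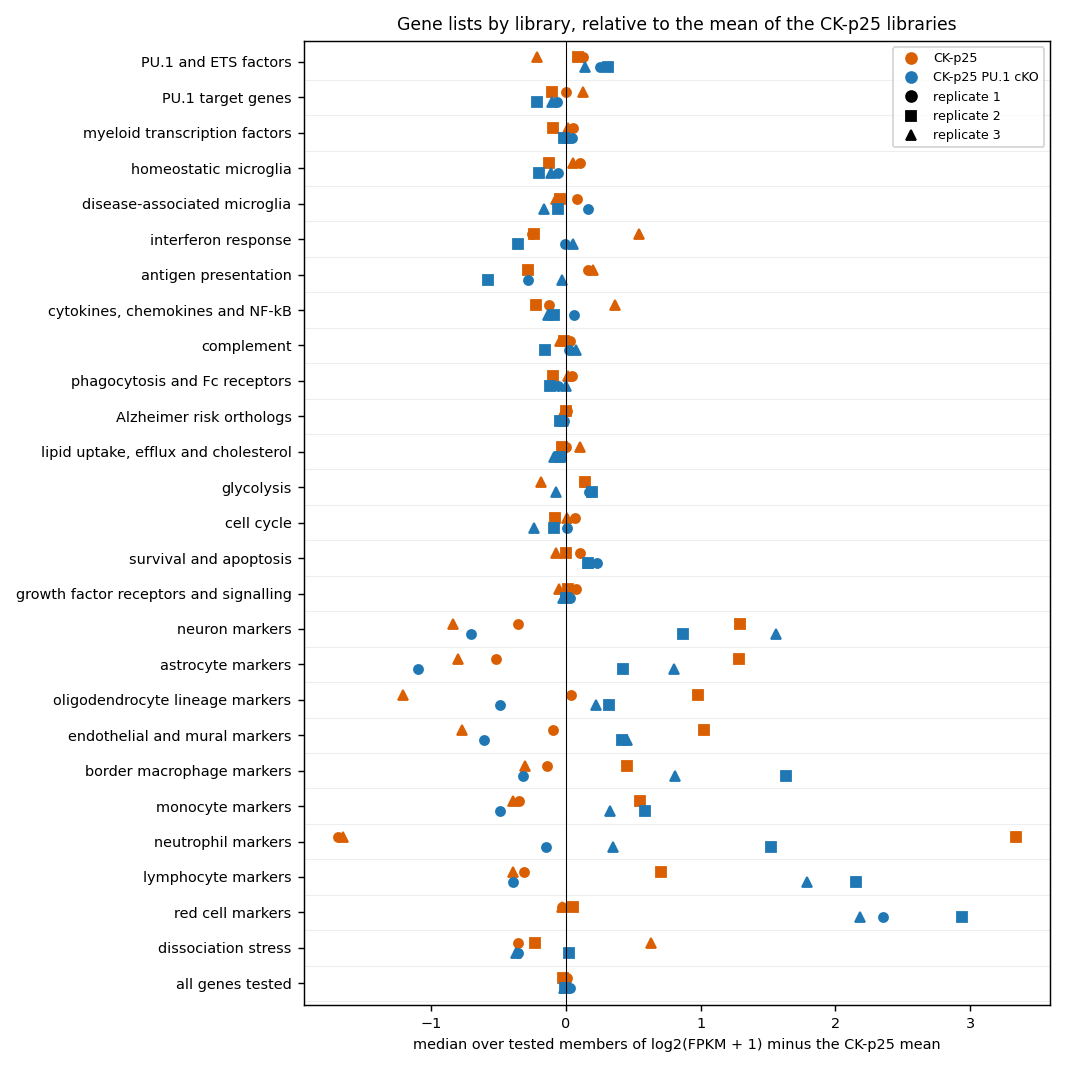
Median over the tested members of each gene list of log2(FPKM + 1) minus the mean of the 3 CK-p25 libraries (horizontal axis), for each CK-p25 and cKO library. The interferon list reaches 0.55 in CK-p25 replicate 3 and the antigen presentation list -0.57 in cKO replicate 2, lists of neurons, astrocytes and neutrophils span more than 1 log2 unit within each group, and the red cell list, of 2 tested members that passed the filter through the cKO libraries, is highest in cKO.

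Markers of other cells varied widely within each group. The median over tested neuron markers, on the log2 scale relative to the CK-p25 mean, was -0.70, 0.87 and 1.56 in cKO and -0.35, 1.29 and -0.83 in CK-p25. CK-p25 replicate 2 and the library labelled cKO replicate 3 were high, CK-p25 replicate 3 and cKO replicate 1 low. The summed FPKM of the 15 neuron markers was 6.15, 30.1 and 68 in cKO and 10.1, 50.1 and 4.15 in CK-p25, small beside microglial genes. Summed astrocyte markers reached 104, 237 and 281 and 109, 423 and 120.3 FPKM, and oligodendrocyte lineage markers 172, 364 and 394 and 179, 561 and 116. Endothelial and mural markers summed to 13.9, 24.5 and 34.03 in cKO and 17.2, 51.5 and 9.37 in CK-p25. None of the 7 neuron, 10 astrocyte, 8 oligodendrocyte lineage and 6 endothelial and mural genes tested had groups that did not overlap (9.38% of all genes tested). The list medians were 0.60, 0.09, 0.08 and 0.16. Without the library labelled cKO replicate 3 they were 0.00, -0.29, -0.06 and -0.15. With the mean level of the neuron, astrocyte and oligodendrocyte lineage markers as a covariate, 0 genes passed in either direction.

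Border macrophage genes summed to 183, 542 and 269 FPKM in cKO and 156, 209.6 and 147 in CK-p25. Their list median was 0.72, and 0 of 10 had groups that did not overlap (9.38% of all genes tested). The mannose receptor gene Mrc1 measured 10.9, 54.6 and 31.3 FPKM in cKO against 15.5, 23.7 and 12.2 in CK-p25. Summed monocyte markers were 57.2, 80 and 87.1 and 39.1, 83.3 and 61.4 FPKM. Of 7 monocyte genes tested 3 had a higher and 4 a lower mean in cKO, with a list median of -0.04. Fn1, with the smallest p, measured 28.01, 21.6 and 5.71 FPKM in cKO against 5.96, 9.27 and 1.94 in CK-p25 (1.46 ± 0.61). Over the 21 alternatives the Fn1 difference ran from 0.95 to 2.11, highest without the library labelled cKO replicate 3. Ccr2, the monocyte chemokine receptor gene, measured 2.396, 6.09 and 4.31 FPKM in cKO against 3.47, 4.24 and 2.22 in CK-p25. Neutrophil markers summed to 31.1, 176 and 53.9 and 1.97, 860.4 and 2.902 FPKM, and CK-p25 replicate 2 held most of them. Of 5 lymphocyte markers tested 1 had groups that did not overlap (9.38% of all genes tested), Cd4, at 3.29, 8.19 and 2.597 FPKM in cKO against 1.29, 2.57 and 0.951 in CK-p25 (1.05 ± 0.52), while the T cell gene Cd3e measured 0.126, 5.09 and 3.63 FPKM in cKO against 0, 1.39 and 0 in CK-p25. Cd79b of the same list had a lower mean in cKO, at -1.32 ± 0.56 with all libraries. Their part in the results above was not tested.

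The red cell gene Hba-a2 measured 2.92, 4.43 and 17 FPKM in cKO and is listed at 0 in each CK-p25 library, and Hbb-bt measured 1.46, 3.18 and 9.48 and is listed at 0 in the 6 other libraries. Hbb-b1 measured 5.88, 10.2 and 0.183 FPKM in cKO against 0, 0.118 and 0 in CK-p25 and Hbb-bs 0.162, 0.207 and 40.6 FPKM in cKO against 0, 0.00361 and 0 in CK-p25. The beta globin genes thus differed among the cKO libraries, Hbb-b1 being found in replicates 1 and 2 and Hbb-bs mainly in the library labelled replicate 3. Their sequences are much alike, and how their reads were assigned is not given in the sources used here. The cause of this difference among the cKO libraries was not tested. The dissociation stress list had 12 members tested, 2 of them with groups that did not overlap (9.38% of all genes tested), Ier3 (-0.67 ± 0.20) and Atf3 (-0.52 ± 0.23), both lower, and a list median of -0.28. CK-p25 replicate 3 was highest in that list, at 0.63 above the CK-p25 mean, beside its high interferon and interleukin levels.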

How the data were processed

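The authors deposited 1 table of FPKM values for the 9 libraries of 4.5 months, with 23951 rows. Cufflinks 2.0.0, Bowtie, TopHat and mm9 are listed, per the submitters' processing notes, and settings and annotation are not given in the sources used here. Low-input full-length cDNA and tagmentation kits were used, per the labels' protocols. FPKM removes depth, so precision per library is known only from the relative value of 1 read. Columns were matched to samples by the description in the labels.

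Values were analysed as log2(FPKM + 1), pseudocount 1, for the 10894 genes whose mean over the 9 libraries reached 1 FPKM, which understates differences of low genes. limma 3.58.1 in R 4.3.3, with a mean-variance trend, was fitted to all 9 libraries, two-sided, with Benjamini-Hochberg adjustment over all genes and a threshold of 0.05. The fit was tested on simulated data. Named genes are Spi1, the 10 smallest p per direction with no overlap between groups (small RNAs and unnamed models left out), and per list the first 3 members, the 3 smallest p and those with no overlap. Mybpc3, the genes named from the fit without cKO replicate 3, the globin gene Hbb-bs, Csf2ra and the class I and peptide supply genes were chosen after their values were seen. Members and the 26 gene lists were chosen with earlier results of these data known. Alternatives were another pseudocount, filters, scalings, library weights, a neural marker covariate, a replicate block and leaving out each library. The 3-month libraries and the chromatin samples were not analysed here, and some list members are not reported here. Of the symbols, 23815 matched a current or older symbol of GRCm38.p6; promoter sequences are from RefSeq.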

Additional observations from a re-analysis of the deposited data

How the results depend on the processing

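The fit as reported called 0 genes in either direction, and 21 alternatives were run. The count of higher and lower genes was 1 and 1 with no filter, 1 and 0 after quantile normalization, 2 and 0 with only the 6 compared libraries, 3 and 3 with library weights, and 1 and 0 without small RNAs and gene models. Leaving out 1 library gave 0 to 12 higher and 0 to 13 lower, and a Spi1 difference of -0.65 to -0.36, the highest counts and the lowest Spi1 difference without cKO replicate 3; the cause was not tested. The replicate block, with the shared replicate numbers as a term, called 0 and 0 and left the Spi1 difference at -0.49. Deviations of same-numbered libraries correlated at 0.047, 0.125 and -0.0156, so the numbers are not taken as pairs. Of single genes, the Cx3cr1 difference turned to -0.00706 and that of Spp1 to 0.0939 with library weights. After quantile normalization Ctsb turned to 0.0802 and Lamp1 to 0.086. Leaving out 1 library, Spp1 ran from -0.404 to 0.0617 and Cst7 from -0.518 to 0.0163, above 0 without cKO replicate 3. Rbm45 passed in 4 alternatives (adjusted p 0.0418 after quantile normalization, 0.0118 with library weights, 0.0318 without small RNAs and gene models, 0.00542 without cKO replicate 3), and Tmem163 with library weights (0.0246). Tmem163 reached the filter only through the CK-p25 libraries, so its call adds no support. Depth limits genes of a few FPKM, most in CK-p25 replicate 3.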
